A study of Mus musculus with 8 samples.

Results

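The calcium/calmodulin-dependent protein kinases were followed here across 8 arrays of mouse trigeminal ganglion, with Camk4 as the lead gene. All probe sets annotated with one of 10 gene symbols alone were taken: Camk4, Camk1, Camk1d, Camk1g, Camk2a, Camk2b, Camk2d, Camk2g, Camkk1 and Camkk2. This gave 31 of 45037 non-control probe sets, for 9 of the 10 genes. They were 5 for Camk4, 2 for Camk1, 3 for Camk1d, 1 for Camk1g, 6 for Camk2a, 1 for Camk2b, 7 for Camk2d, 2 for Camk2g and 4 for Camkk2. No probe set carried the symbol Camkk1 alone, so that gene was not analysed here. Camk4 was chosen by its measured difference between the groups, which was already known to run in opposite directions at different probe sets, so its differences are given as a description without a test. The other genes were taken by name as its family.

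The trigeminal ganglion is the sensory ganglion that innervates the face. The daDREAM group was 4 samples from transgenic mice, all titled with the tag tg16, and the control group was 4 samples from mice labelled control. daDREAM is a form of the calcium-binding transcriptional repressor DREAM (gene Kcnip3) designed to stay active. Mice of both groups were adult males of the C57B/6XCBA background, per the labels. The sources used here do not give the promoter that drives the transgene, nor whether a sample is 1 animal or a pool. The p-values therefore measure only the spread between the samples as labelled. Values are log2 expression values made by RMA (robust multi-array average). Differences are daDREAM minus control, and a probe set passed the test at a limma adjusted p under 0.05 over all 45037 probe sets. Equal masses of RNA were labelled, so fewer cells of a type and less RNA per cell cannot be told apart.

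In neurons, calcium entering the cell binds calmodulin, and calcium-calmodulin switches these kinases on. CaMKK1 and CaMKK2 are the upstream kinases that phosphorylate and so fully activate CaMKI and CaMKIV. CaMKIV, the product of Camk4, is largely nuclear and phosphorylates the transcription factor CREB, whereas the CaMKI kinases act mainly in the cytoplasm. CaMKII forms large rings of subunits from 4 genes and can keep itself active by autophosphorylation after the calcium signal has passed. DREAM responds to the same signal by another route, since calcium binding releases it from its DNA sites.

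Some arrays stood apart from their labels or from the rest. Xist is expressed from the inactive X of females, and all animals are labelled male. At its brightest probe set it read 10.20 to 11.72 on daDREAM replicate 4 and control replicates 3 and 4. On the other arrays it read 6.10 to 6.49. The Y-linked gene Eif2s3y (1417210_at) read 4.46 on daDREAM replicate 4, against 8.74 to 9.04 on the arrays without Xist signal. On control replicates 3 and 4 it read 8.40 and 7.16, so these 3 arrays were not alike. At its other probe set, 1431642_at, the 3 arrays read 4.48, 5.72 and 4.97 in the same order, against 6.02 to 6.52. Whether any sample was mixed was not tested. Growth hormone (Gh), a pituitary gene, was highest on daDREAM replicates 4 and 3 and on control replicate 3 (13.43, 12.50 and 11.15). Muscle actin (Acta1) was highest on control replicates 3 and 1 (9.40 and 9.20, against 6.60 to 7.07 elsewhere). The differences of the kinase probe sets, the counts of calls among them, their pairs, the pathway genes and the brain markers were also computed without these arrays. Sensory neuron markers had mean levels of 11.78 to 11.89 on daDREAM arrays and 11.73 to 11.89 on control arrays. Of 19 measured markers 0 passed in limma, beside 2.23% of 18193 genes called at their brightest probe sets. At an unadjusted limma p under 0.05 there were 0, beside 18.5% of all probe sets. An unequal-variance test called 0, but only 166 of all 45037 probe sets. With so few calls in the whole table, 0 calls in a short list do not show equal levels. The 2 Kcnip3 probe sets differed by 0.03 and 0.27 without passing (limma adjusted p = 0.885 and 0.346), and the sources used here do not say whether either reads the transgene.

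Camk4 gave opposite readings from different probe sets. Of its 5 probe sets, 2 were higher and 3 were lower in daDREAM ganglia. In 4 of the 5 the groups did not overlap, beside 11.0% of all probe sets. This count is a description, since the gene was chosen by its difference. The widest difference was at 1439843_at, which was 2.72-fold higher. The Camk4 locus is also known to give rise to calspermin, a short testis protein without the kinase domain. The sources used here do not say which transcripts each probe set reads.

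Probe set 1439843_at read 8.33, 8.04, 8.33 and 7.91 on daDREAM arrays 1 to 4, against 6.81, 6.87, 6.69 and 6.47 on control arrays 1 to 4. Every daDREAM array lay more than 1 log2 unit above every control array. The means were 8.15 ± 0.21 and 6.71 ± 0.18 (SD, n = 4 each), a difference of 1.44 (SE 0.12). The other probe set that read higher, 1441974_at, gave 5.68, 5.61, 5.76 and 5.46 on daDREAM arrays, against 5.07, 5.17, 5.17 and 5.43 on control arrays. Its groups were separated by the small step between daDREAM replicate 4 and control replicate 4. The difference was 0.42 (SE 0.10). Both of its group means, 5.63 ± 0.13 and 5.21 ± 0.15, lay below a log2 value of 6, a range that holds 29.4% of all probe sets and is close to background.

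The 3 remaining Camk4 probe sets read lower. Probe set 1426167_a_at gave 6.97, 6.83, 6.87 and 6.76 on daDREAM arrays, against 7.32, 7.46, 7.27 and 7.28 on control arrays, a difference of -0.48 (SE 0.08). The highest daDREAM array was below the lowest control array by more than the SD of either group (0.09 each). At 1421941_at the values were 6.46, 6.32, 6.10 and 6.42 on daDREAM arrays and 6.72, 6.59, 6.69 and 6.60 on control arrays, a difference of -0.32 (SE 0.09), again with no overlap. At 1452572_at they were 6.57, 6.62, 6.72 and 6.60 on daDREAM arrays and 6.80, 6.84, 6.70 and 6.92 on control arrays. There daDREAM replicate 3 reached into the control range, and the difference was -0.19 (SE 0.07).

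**Figure D1:**
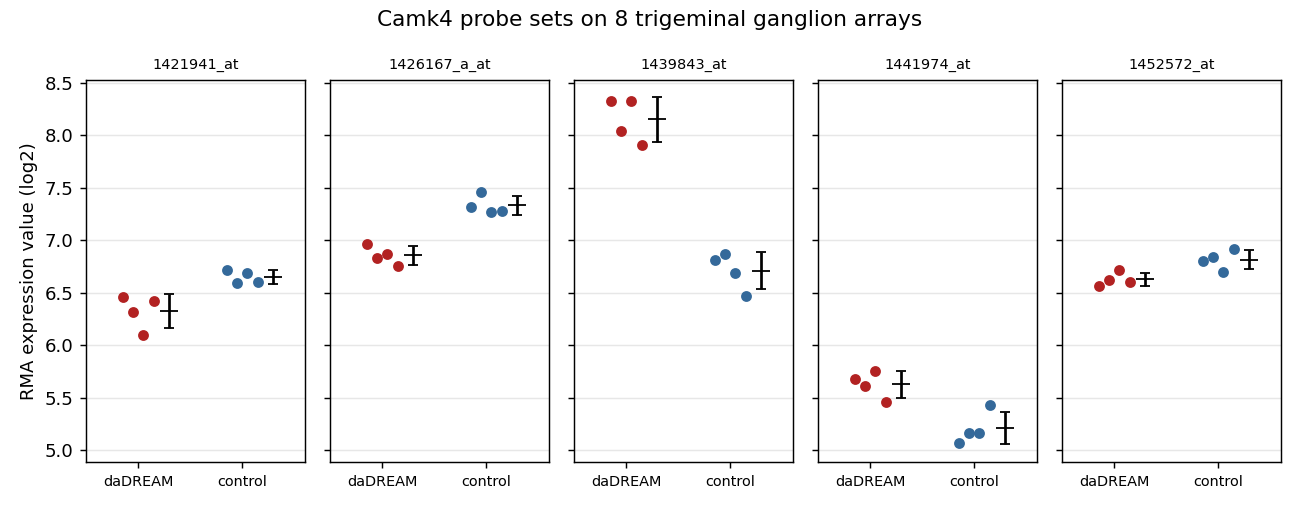
RMA log2 expression value (vertical axis) of the 5 Camk4 probe sets, 1 panel each, with 1 point per array for daDREAM (red) and control (blue) and the mean ± SD of 4 arrays beside them. 1439843_at and 1441974_at lie higher in daDREAM ganglia (1.44 and 0.42), and the other 3 lie lower (-0.32, -0.48 and -0.19).

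The disagreement was present on every array. Relative to 1426167_a_at, the reading of 1439843_at was shifted by 1.92 (SE 0.11) between the groups on the log2 scale. The shift relative to 1421941_at was 1.77 (SE 0.15), that relative to 1452572_at 1.63 (SE 0.14) and that relative to 1441974_at 1.02 (SE 0.15). On the array scale a ratio between probe sets has no meaning of its own, so only these shifts are given. Both probe sets that read higher were designed from expressed sequence tags, per the accession types in the platform annotation. Of the 3 that read lower, 2 were designed from mRNA or cDNA entries and 1 had no accession; this grouping was made after the values were seen.

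Across the table, the span of 1.92 between the highest and lowest Camk4 difference was the 34th widest among 9010 genes with more than 1 probe set, whose median span was 0.19. Among the 856 genes with at least 5 probe sets it was the 11th widest, beside a median of 0.34. Probe sets past the test in both directions were found in 36 of the 9010 genes (0.4%). That share is given as background only. Because opposite directions are why Camk4 was chosen, its ranks are a description and no test is given for it.

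Markers of brain and of T cells were set beside Camk4, and some brain markers moved with the groups. Camk4 is abundant in cerebellar granule cells and in T cells. Of 22 brain markers, each read at its probe set with the highest mean, 21 had differences above 0. The 2 that passed were both higher, beside 2.23% of 18193 genes called at such probe sets. They were the astrocyte water channel Aqp4 (0.76, limma adjusted p = 0.0133) and the astrocyte connexin Gjb6 (0.69, adjusted p = 0.0226). The mean level of the list was 8.45 to 8.97 on daDREAM arrays and 7.80 to 8.37 on control arrays, which do not overlap. The count of called markers became 0 without daDREAM replicate 3 and 1 without control replicate 1, daDREAM replicate 2 or daDREAM replicate 4. Aqp4 was lost without daDREAM replicate 3 (limma adjusted p = 0.0537). Gjb6 was lost without control replicate 1 or 2 or daDREAM replicate 2, 3 or 4 (limma adjusted p = 0.0523 to 0.0821). Both were lost without control replicates 1 and 4 together (limma adjusted p = 0.14 and 0.136). No marker was at 0, a value that RMA does not give.

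The astrocyte filament gene Gfap, a marker of this list named after its values were seen, differed by 1.58 at that probe set without passing, with groups that did not overlap (SE 0.38, limma adjusted p = 0.0520). At another Gfap probe set, 1440142_s_at, the values were 8.82, 8.93, 9.15 and 9.14 on daDREAM arrays, against 5.90, 5.89, 5.98 and 5.68 on control arrays. That difference was 3.15 (SE 0.10, limma adjusted p = 6.22e-09), wider than the one at any Camk4 probe set. The remaining Gfap probe set, 1426509_s_at, differed by only 0.65, with groups that overlapped (SE 0.32, limma adjusted p = 0.307). Probe sets of Gfap thus differed widely as well. Gabra6, a marker of cerebellar granule cells also named after its values were seen, read 9.96, 7.05, 9.14 and 7.55 on daDREAM arrays, against 7.21, 8.24, 6.42 and 6.23 on control arrays. Its groups overlapped, and its difference of 1.40 did not pass (limma adjusted p = 0.239). That value was close in size to the 1.44 of Camk4 1439843_at, whereas the median difference over the 22 brain markers was 0.35. Without control replicates 1 and 4, the arrays with the lowest brain marker levels, 1439843_at differed by 1.37 and 1426167_a_at by -0.51.

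Neither limma nor the unequal-variance test called any of 9 T cell markers (0 each). In limma 1 had an unadjusted p under 0.05, beside 18.5% of all probe sets. The T cell receptor component Cd3e differed by -0.25 (limma adjusted p = 0.149). The mean level of the list was 6.97 to 7.14 on daDREAM arrays and 7.08 to 7.31 on control arrays. This level is raised by Thy1, with means of 12.83 in daDREAM and 12.80 in control. No other marker of the list had a group mean above 8.00. How far these cells enter the Camk4 readings was not tested.

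**Figure D2:**
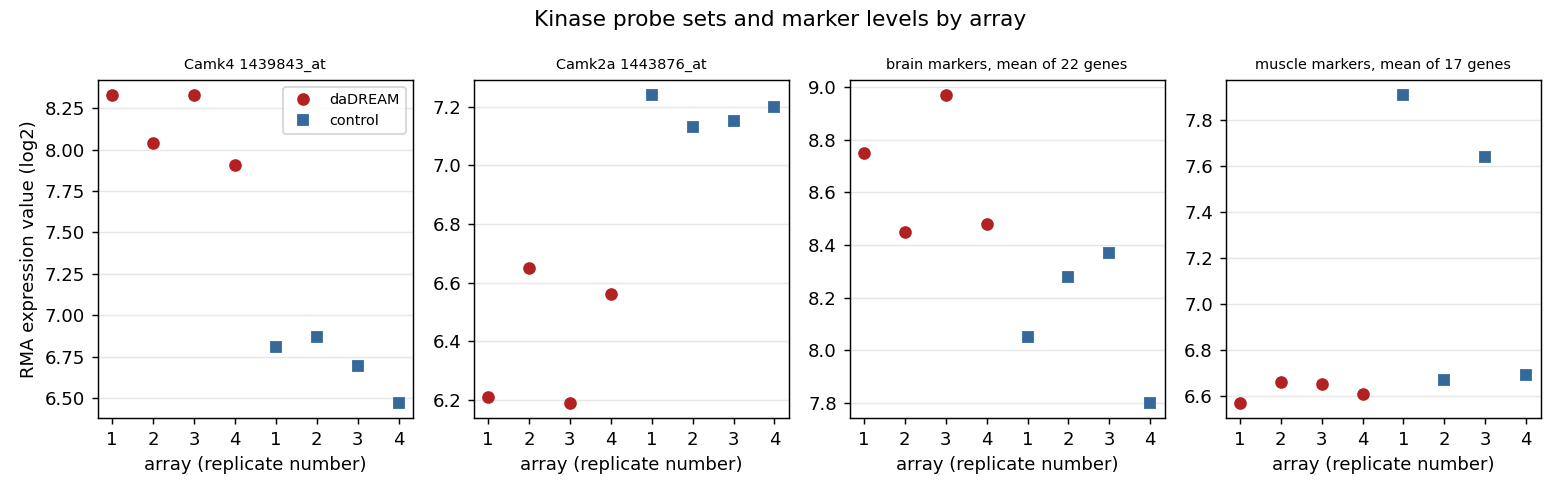
Log2 values by array (horizontal axis, replicate numbers, daDREAM in red to the left and control in blue to the right) for Camk4 1439843_at, Camk2a 1443876_at, and the mean levels of 22 brain markers and 17 skeletal muscle markers, each panel with its own vertical range. The kinase probe sets separate the groups, as do the brain markers and, narrowly, the muscle markers, which stand high on control replicates 1 and 3 (7.91 and 7.64).

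Outside Camk4, 1 of 26 probe sets passed the test, against 2.74% of all probe sets called. It was 1443876_at of Camk2a, which was lower in daDREAM ganglia. Of the 26, 17 had differences above 0 and 9 below, and the median difference was 0.05, beside -0.01 over all probe sets. Groups did not overlap at 4 of the 26, 2 higher and 2 lower, where 11.0% of all probe sets were so separated. An unadjusted p under 0.05 was found at 6 of the 26, beside 18.5% of all probe sets. These shares were near the background and are not a result about the family.

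**Figure D3:**
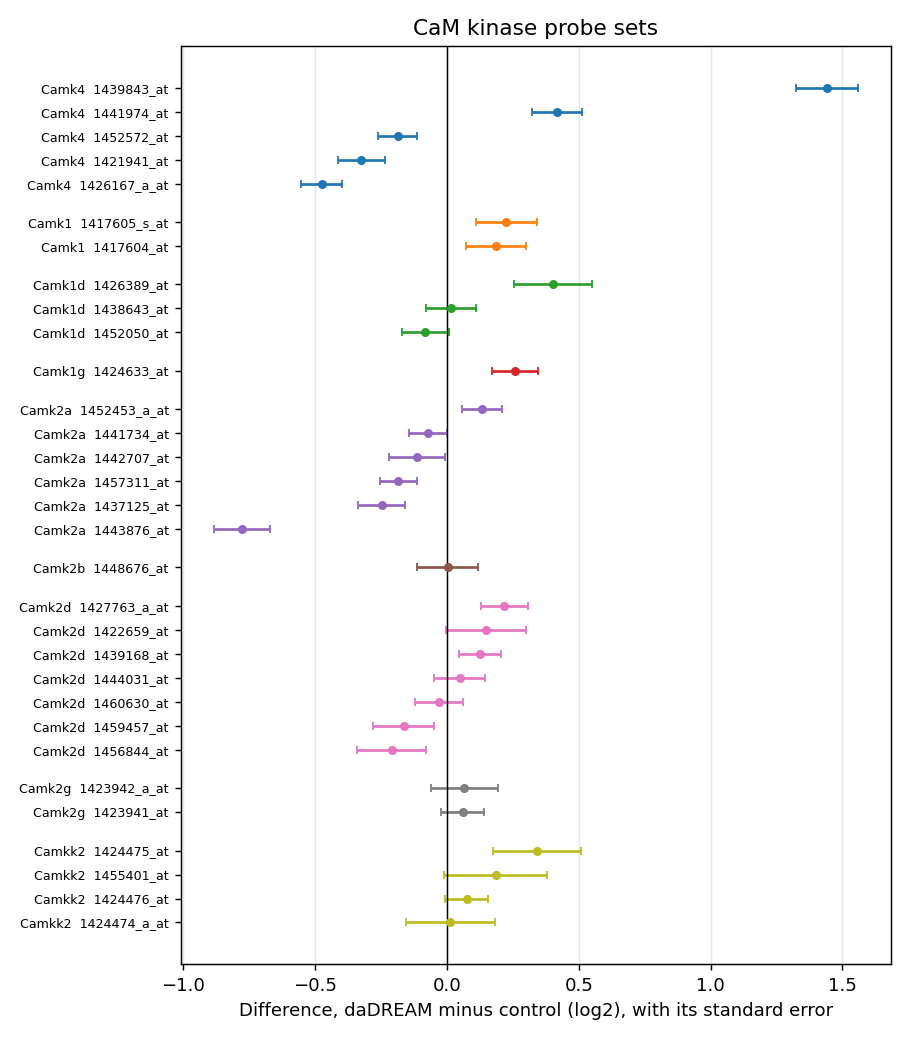
Difference between group means, daDREAM minus control, on the log2 scale (horizontal axis) for all 31 probe sets by gene, with the standard error from limma as bars. Camk4 holds both the highest value and lower ones, Camk2a 1443876_at is the lowest at -0.78, and the remaining 25 probe sets outside Camk4 lie within 0.40 of 0.

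The CaMKII subunits were the part of the family with the most probe sets. Camk2a encodes the alpha subunit, which is typical of forebrain neurons, and the locus also encodes a kinase-free anchoring protein of skeletal muscle. Probe set 1443876_at read 6.21, 6.65, 6.19 and 6.56 on daDREAM arrays, against 7.24, 7.13, 7.15 and 7.20 on control arrays. The control arrays lay within a narrow band that no daDREAM array reached. The means were 6.40 ± 0.24 and 7.18 ± 0.05 (SD, n = 4 each), so the signal fell 1.71-fold (difference -0.78, SE 0.11, limma adjusted p = 0.00181).

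Without daDREAM replicates 3 and 4 and control replicate 3, the arrays with the most Gh, the difference was -0.76 with an adjusted p of 0.0569. An unequal-variance test gave an adjusted p of 0.208. Of 22 brain markers, 21 had differences above 0 and 2 passed in limma, whereas this Camk2a probe set was lower on the daDREAM arrays. Muscle markers had mean levels of 6.57 to 6.66 on daDREAM arrays and 6.67 to 7.91 on control arrays. By limma 0 of 17 passed, and the unequal-variance test called 0 as well. An unadjusted limma p under 0.05 was found at 10 of the 17, beside 18.5% of all probe sets. Leaving out control replicates 1 and 3, the arrays highest in Acta1, gave -0.76 for 1443876_at (limma adjusted p = 0.0355). How far brain or muscle tissue enters this Camk2a reading was not tested.

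The other 5 Camk2a probe sets did not pass. The brightest, 1457311_at, read 8.55, 8.50, 8.56 and 8.38 on daDREAM arrays and 8.69, 8.71, 8.66 and 8.67 on control arrays. Its groups did not overlap, but the difference was only -0.18 (SE 0.07, limma adjusted p = 0.193). At 1437125_at the values were 7.50, 7.52, 7.72 and 7.49 on daDREAM arrays and 7.70, 7.70, 7.98 and 7.84 on control arrays, which overlapped by 1 daDREAM array. This difference was -0.25 (SE 0.09, adjusted p = 0.171). The probe sets 1442707_at and 1441734_at read -0.12 and -0.07, and 1452453_a_at, the only Camk2a probe set designed from an mRNA or cDNA entry, read 0.13 (SE 0.07, adjusted p = 0.368).

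**Figure D4:**
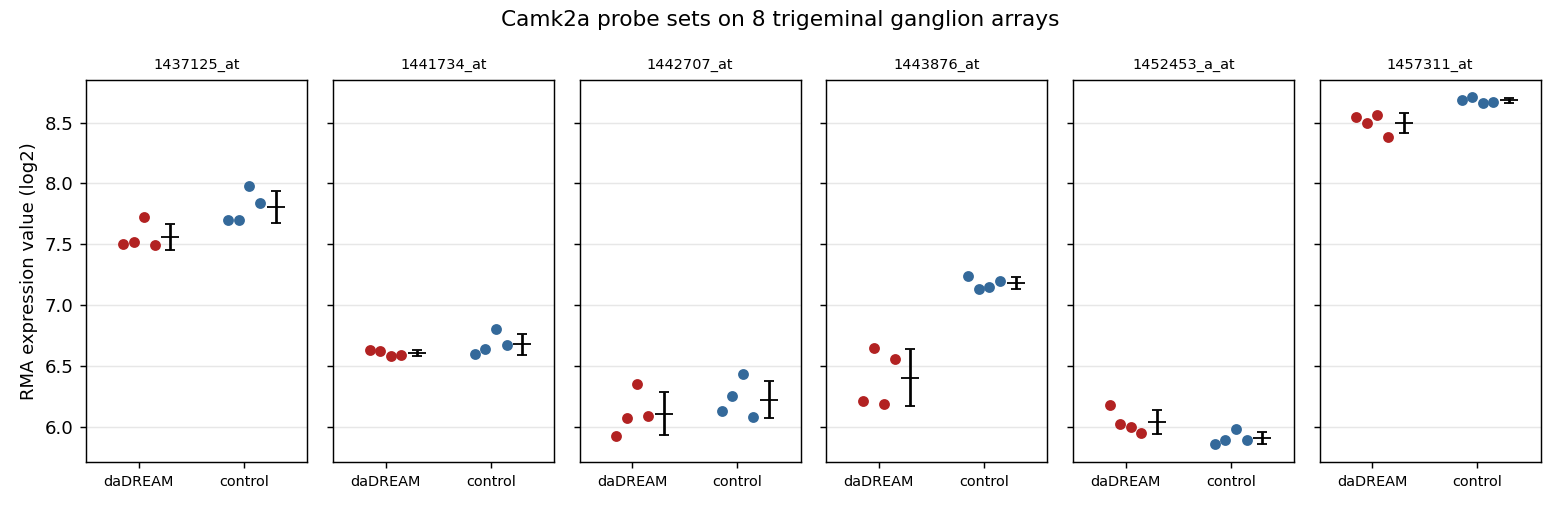
RMA log2 expression value (vertical axis) of the 6 Camk2a probe sets, 1 panel each, with 1 point per array for daDREAM (red) and control (blue) and the mean ± SD of 4 arrays beside them. Only 1443876_at passed the test (-0.78), and the other 5 differed by -0.25 to 0.13.

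Whether probe sets of a gene differed from each other in their group difference was tested directly, on the log2 ratio between a gene's brightest probe set and each other one. Of 18 such pairs outside Camk4, 1 passed, against 2.76% of the 16752 pairs in the table. It was Camk2a, where 1457311_at shifted by 0.59 (SE 0.14, limma adjusted p = 0.0416) relative to 1443876_at. This call was close to the threshold. It was lost when any 1 of the control arrays, daDREAM replicate 1 or daDREAM replicate 3 was left out. For the Camk2a pair with 1452453_a_at the shift was -0.32 (SE 0.09, adjusted p = 0.0928). Within Camk1d the largest shift was -0.48 (SE 0.14, adjusted p = 0.104), and within Camk2d it was 0.43 (SE 0.17, adjusted p = 0.216).

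The beta, delta and gamma subunits of CaMKII showed no probe set past the test. Camk2b, the other main neuronal subunit, read 8.90, 8.86, 9.25 and 8.64 on daDREAM arrays and 8.86, 8.88, 9.06 and 8.84 on control arrays. Its groups overlapped, though daDREAM replicate 3 lay above and daDREAM replicate 4 below all control arrays. The difference was 0.00 (95% interval -0.25 to 0.26, limma adjusted p = 0.992). Camk2g, the gamma subunit, differed by 0.06 at both 1423941_at (95% interval -0.12 to 0.24) and 1423942_a_at (-0.21 to 0.34).

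Camk2d, the delta subunit, is the main form in heart and is found in many tissues. Its 7 probe sets differed by -0.21 to 0.22, 4 above and 3 below 0. The brightest, 1427763_a_at, read 9.70, 9.69, 9.67 and 9.43 on daDREAM arrays and 9.33, 9.48, 9.29 and 9.52 on control arrays. Of the daDREAM arrays, 3 lay above all control arrays and replicate 4 lay within them (difference 0.22, SE 0.09, limma adjusted p = 0.220). At 1439168_at the values were 8.89, 8.63, 8.63 and 8.63 on daDREAM arrays and 8.56, 8.58, 8.57 and 8.57 on control arrays. There the groups were apart, but by a step of 0.05 for all except daDREAM replicate 1, and the difference of 0.12 did not pass (SE 0.08, adjusted p = 0.419). The lowest value, at 1456844_at, was -0.21 (SE 0.13, adjusted p = 0.416), and 1444031_at lay below a log2 value of 6 in both groups.

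The CaMKI kinases were slightly higher in most readings, and none passed. Camk1g, a membrane-attached form found in neurons, read 9.27, 9.51, 9.25 and 9.13 on daDREAM arrays and 8.99, 9.06, 9.10 and 8.98 on control arrays. The groups did not overlap, with a gap of 0.03 between them. The difference was 0.26 (SE 0.09, 95% interval 0.07 to 0.45, limma adjusted p = 0.153). Camk1, the ubiquitous alpha form, differed by 0.18 (SE 0.11) and 0.23 (SE 0.12) at its 2 probe sets (adjusted p = 0.406 and 0.326). Both Camk1 probe sets were highest on control replicate 2 among all 8 arrays.

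Camk1d, the delta form, read differently at its probe sets. At 1426389_at it gave 7.52, 7.73, 7.84 and 7.65 on daDREAM arrays and 6.88, 7.14, 7.68 and 7.43 on control arrays. Control replicate 3 reached into the daDREAM range, and the difference of 0.40 did not pass (SE 0.15, limma adjusted p = 0.183). Without daDREAM replicate 4 and control replicates 3 and 4, the arrays with female signal, it was 0.69 with an adjusted p of 0.0281. The brightest Camk1d probe set, 1452050_at, differed by -0.08 (SE 0.09), and 1438643_at by 0.01 (SE 0.09).

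The upstream kinase Camkk2 had 4 probe sets, all with differences above 0 and none past the test. At 1424475_at the values were 6.94, 7.17, 7.51 and 7.03 on daDREAM arrays and 6.40, 6.90, 7.24 and 6.74 on control arrays. The groups overlapped, and the difference was 0.34 (SE 0.17, 95% interval -0.02 to 0.71, limma adjusted p = 0.301). The brightest, 1424474_a_at, differed by 0.01 (95% interval -0.36 to 0.38). At this probe set control replicates 1 and 2 (8.27 and 8.26) lay well below control replicates 3 and 4 (8.86 and 9.00), a spread within the group wider than any difference between groups in this gene. The remaining ones differed by 0.19 (1455401_at) and 0.08 (1424476_at, near background in both groups).

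Genes around these kinases in the pathway did not pass at the probe set with the highest mean of each gene. Of 67 measured genes in 4 lists, 0 passed limma, beside 2.23% of 18193 genes called at such probe sets. At an unadjusted p under 0.05 there were 6, beside 18.5% of all probe sets, and the unequal-variance test also called 0. Leaving out 1 array gave 1 call in 2 of 8 cases, Dapk3 without control replicate 2 and Mef2b without daDREAM replicate 1. The 67 differences had a median of 0.05, with 43 above 0 and 24 below.

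Among 9 calmodulin-like and calmodulin-binding genes the smallest p was that of Pcp4, a small calmodulin-binding protein, at 0.18 (SE 0.09, limma adjusted p = 0.306). Among 22 related kinases and regulators it was that of Dapk3, a death-associated protein kinase, at 0.40 (SE 0.11, adjusted p = 0.0884). The CaMKII inhibitor genes Camk2n1 and Camk2n2, named for their role after their values were seen, read -0.08 (SE 0.17) and 0.16 (SE 0.18). Among 13 phosphatase genes, 12 of which read above 0, it was that of the phosphatase 2A catalytic subunit Ppp2cb, at 0.31 (SE 0.10, adjusted p = 0.133). Among 23 nuclear targets and cofactors it was that of Mef2b, a transcription factor of the MEF2 family, at -0.36 (SE 0.10, adjusted p = 0.0766). Creb1, the CREB gene itself and likewise named after its value was seen, read 0.12 (SE 0.09, adjusted p = 0.522).

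Of 17 measured CREB target genes 1 passed, as lower, beside 2.23% of 18193 genes called at such probe sets. Per1, a circadian clock gene induced through CREB, read 8.24, 8.32, 8.02 and 7.97 on daDREAM arrays and 8.47, 8.81, 9.12 and 8.61 on control arrays. Its groups did not overlap (difference -0.61, SE 0.13, limma adjusted p = 0.0324). The call was lost without control replicate 2 or any 1 of the daDREAM arrays (adjusted p = 0.0503 to 0.103), and also without the arrays with female signal (-0.45, adjusted p = 0.146), with the most Acta1 (-0.57, adjusted p = 0.0648) or with the most Gh (-0.35, adjusted p = 0.288). In the list, 13 values were above 0 and 4 below, with a median of 0.07.

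Genes next to Camk4 on chromosome 18 were set beside it. Of the 5 nearest genes with a probe set on each side, in RefSeq order (GRCm38.p6), 1 of 10 passed at its brightest probe set. Over all 18193 genes, 2.23% were called at such probe sets. Stard4, a sterol transport protein gene and the nearest on one side, read 9.78, 9.72, 9.76 and 10.04 on daDREAM arrays and 10.19, 10.36, 10.46 and 10.49 on control arrays. The groups did not overlap (difference -0.55, SE 0.10, limma adjusted p = 0.00818). Without the arrays with the most Gh it was -0.60 with an adjusted p of 0.0783. Its other probe sets read -0.34 and -0.19 without passing (adjusted p = 0.211 and 0.282). The brightest probe sets of the remaining 9 neighbours differed by between -0.11 and 0.14. Camk2a lies elsewhere on the same chromosome. Of its 10 nearest genes, looked up after the values were seen, 0 passed limma and 0 the unequal-variance test. An unadjusted limma p under 0.05 was found at 2, beside 18.5% of all probe sets. Their differences as a set ran from -0.23 to 0.21 over the 10 genes.

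The probe sets whose levels over the 8 arrays were most like Camk4 1439843_at were those of Erc1, Myorg, Stk36, Serpina1b and Prpf40b. Their Pearson r was 0.985 to 0.989 and their Spearman rho 0.88 to 0.97. Because 1439843_at separates the groups, so do these, with differences from 0.23 (Prpf40b) to 1.55 (Serpina1b). For deviations from the group means, the most alike were Atp5b, Arg2, Zfp952, Dohh and Rwdd3, with r from 0.978 to 0.986. All points come from the same 8 arrays and were normalized together, and the names were picked as the highest among all single-symbol probe sets.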

How the data were processed

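Trigeminal ganglion RNA was measured on 8 Affymetrix arrays, 4 per group. The authors deposited log2 values, 1 per probe set and array, which the submitters' processing notes credit to RMA and the affy package; the sources used here give no versions. RMA subtracts background, quantile-normalizes over arrays and summarises probes, so a shift shared by most genes is lost. Values ran from 3.39 to 14.84 over the probe sets used, array medians from 7.09 to 7.13, and correlations between arrays from 0.983 to 0.996. The number of arrays limits the precision.

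Of 45101 probe sets, 64 controls were left out. Platform annotation gave 34945 a single symbol, 932 several and 9160 none. All 45037 were fitted with limma 3.58.1 (lmFit, eBayes, two-sided; R 4.3.3), with genotype as the sole factor, no filter on level, and p-values adjusted by Benjamini-Hochberg. The 16752 pairs of probe sets of a gene were fitted likewise. The fit was tested on simulated data. Members, lists and tests were chosen with earlier results of these data known. Named genes were all members, Kcnip3, in each list up to 4 called genes or the one with the smallest p, the 5 most alike in pattern by each measure, and called neighbours of Camk4. Genes outside this rule are said in the text to have been named after their values were seen, or mark arrays that stood apart. Of the remaining marker lists, 0 of 10 glial, 0 of 10 macrophage and 0 of 8 pituitary genes passed limma, beside 2.23% of 18193 genes. The unequal-variance test called 0 in each, but only 166 of all 45037 probe sets. Unadjusted, 2, 1 and 1 of the genes in these 3 lists had a limma p under 0.05, beside 18.5% of all probe sets. The smallest p belonged to Nefh in sensory neurons, Fabp7 in glia, Cd163 in macrophages, Myl1 in muscle and Chga in pituitary (limma adjusted p = 0.299, 0.206, 0.210, 0.103 and 0.0757). Alternatives are given in the closing section, and those that leave out several arrays were chosen after seeing the data. Figures used matplotlib 3.10.9 in Python 3.11.15. No sequence is shown, as the tables used here hold no probe sequences.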

Additional observations from a re-analysis of the deposited data

Results flagged for a closer look

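Of 62 groups of 4 arrays (31 probe sets in 2 groups), 4 had an array far from the other 3, where chance gives about 1 in 20. All 4 were daDREAM groups. Camk2a 1437125_at was highest on daDREAM replicate 3 at 7.72, with the others at 7.49 to 7.52. Camk2d 1427763_a_at was lowest on daDREAM replicate 4 at 9.43, with the others at 9.67 to 9.70. Camk2d 1439168_at was highest on daDREAM replicate 1 at 8.89, with the others all at 8.63. Camk2g 1423942_a_at was lowest on daDREAM replicate 4 at 11.80, with the others at 11.97 to 12.00. daDREAM replicate 4 is also the daDREAM array with female signal and the highest Gh.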

How the results depend on the processing

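The 5 Camk4 differences kept their sign in all 94 alternative values. They ranged from 1.36 to 1.52 at 1439843_at, 0.33 to 0.56 at 1441974_at, -0.51 to -0.43 at 1426167_a_at, -0.37 to -0.25 at 1421941_at and -0.26 to -0.14 at 1452572_at. Camk2a 1443876_at stayed between -0.86 and -0.71, and its adjusted p was under 0.05 in 17 of 19 settings. Outside Camk4, 453 of 491 alternative values kept their direction and their side of the threshold. The labels do not say whether a replicate number pairs samples, and the values do not settle it. Correlations of deviations between same-numbered arrays were 0.25, 0.01, 0.30 and 0.34. Of the daDREAM arrays, 2 of 4 correlated best with their own number. With the replicate number as a block, 2 probe sets outside Camk4 passed (the second was Camkk2 1424475_at, adjusted p = 0.0414), as did 1 pathway gene, 6 brain markers, 2 pairs of probe sets and 2017 of all probe sets.

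The unequal-variance test called 0 probe sets outside Camk4, 0 brain markers, 0 pairs and 166 of all probe sets. Array weights gave 2 pairs. An adjusted p under 0.01 left 621 of all probe sets. With 1 probe set a gene, adjusted over genes, 0 members outside Camk4 passed, since 1443876_at does not represent Camk2a there. Leaving out single arrays gave 1 probe set outside Camk4 each time, 0 to 1 pathway genes, 0 to 3 brain markers, 0 to 1 pairs and 755 (without daDREAM replicate 2) to 1271 (without control replicate 3) of all probe sets. It was 783 without daDREAM replicate 3. Without the arrays with female signal, 2 probe sets outside Camk4 and 0 pairs passed. Without those with the most Gh it was 0 probe sets outside Camk4, 1 brain marker, 0 pairs and 392 of all probe sets. Without those with the lowest brain marker levels it was 1 brain marker, 0 pairs and 760. That marker was neither Aqp4 nor Gjb6, which both lost their call there (limma adjusted p = 0.14 and 0.136). Without those with the most Acta1 it was 0 pairs and 649. Fewer arrays enter these fits; the cause of the other changes was not tested.

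Of the values outside Camk4, 34 turned sign, none of them past the test in either setting. Renewed quantile normalization gave -0.068 for Camk2b and -0.053 for Camkk2 1424474_a_at, and array weights gave -0.041 for Camk2g 1423942_a_at. Without the arrays with female signal, the values were 0.0083 for Camk1d 1452050_at, -0.075 for Camk2d 1444031_at, 0.017 for Camk2d 1459457_at, 0.028 for Camk2d 1460630_at and -0.012 for Camk2g 1423942_a_at. Without those with the lowest brain marker levels, they were -0.058 for Camk2b, -0.0025 for Camk2d 1444031_at, 0.055 for Camk2d 1460630_at, -0.025 for Camk2g 1423941_at, -0.15 for Camk2g 1423942_a_at and -0.17 for Camkk2 1455401_at. Without those with the most Gh, they were -0.0017 for Camk1d 1438643_at and 0.053 for Camk2d 1460630_at. Without those with the most Acta1, they were 0.025 for Camk1d 1452050_at and -0.02 for Camkk2 1424474_a_at. Leaving out single arrays gave -0.058 to 0.079 for Camk1d 1438643_at, -0.11 to 0.093 for Camk2b, -0.043 to 0.104 for Camk2d 1444031_at, -0.07 to 0.043 for Camk2d 1460630_at, -0.063 to 0.164 for Camk2g 1423942_a_at and -0.10 to 0.147 for Camkk2 1424474_a_at. The cause was not tested. Stard4, Per1, Aqp4 and Gjb6 kept their sign in all alternatives, and the unequal-variance test called none of these 4.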
